A study of Mus musculus with 30 samples.

Results

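A run of 6 neighbouring odorant receptor (OR) genes of mouse chromosome 1 is described here, 3 of the receptor subfamily MOR103 (Olfr1416, Olfr1415 and Olfr1414) and 3 of the subfamily MOR208 (Olfr1413, Olfr1412 and Olfr1410). They were taken by symbol from the 564 OR genes on the NanoString panel, as the genes that the study's table of OR names gives to these subfamilies at this cluster. All 6 were counted in all 30 mice, and all 6 passed the filter on low counts, a median of at least 100 normalized counts in wild-type mice. RNA of whole olfactory mucosa was counted by direct hybridization, without amplification, with 1 μg of total RNA from a single mouse aged 21 days in each lane of a cartridge. Cartridge MK38 held 6 wild-type mice of strain 129SvEvTac (background 129S6/SvEvTac, 4 females and 2 males) and 6 homozygous ΔOlfr7Δ mice (129SvEv inbred, 2 females and 4 males), in which a stretch of chromosome 9 with a large OR cluster is deleted. Cartridge MK29 held 6 companion wild-type mice of the ΔP (Berry) x ΔH strain (3 females and 3 males) and 6 mice homozygous for both ΔP (Berry) and ΔH (1 female and 5 males), here ΔHxΔP, which lack the P and the H element, a pair of OR gene enhancers on other chromosomes than chromosome 1. Cartridge MK37 held 6 companion wild-type mice of the ΔH strain (4 females and 2 males). All mice on these latter cartridges have a mixed background (C57BL/6J x 129SvEv), so the 129 mice were all read on a cartridge of their own. The deletions are in the germ line, and none was made at the chromosome 1 cluster in any group.

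OR genes encode the odorant-binding receptors of olfactory sensory neurons, the largest gene family of the mouse, arranged in clusters on most chromosomes. A mature neuron expresses a single OR gene from a single allele, so the RNA of one OR gene in whole mucosa is the sum over the neurons that chose it. A lower count in such bulk RNA cannot tell apart fewer neurons that express the gene and less RNA in each of them. Enhancers such as the H and the P element act on OR genes of their own neighbourhood, and OR genes at a distance from them serve as a comparison. MOR103 and MOR208 are subfamilies of class II receptors named by sequence likeness. The ligands of the 6 receptors are not given in the sources used here.

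In the RefSeq models of GRCm38.p6 the 6 genes span 129.1 kb of chromosome 1. Olfr1416 (chr1:92479681-92480619), Olfr1415 (chr1:92490818-92491753) and Olfr1414 (chr1:92511048-92518515) lie on the reverse strand. Olfr1413 (chr1:92573125-92574206), Olfr1412 (chr1:92588332-92589297) and Olfr1410 (chr1:92607839-92608807) lie on the forward strand. The subfamilies therefore point away from each other, with 54609 bases between Olfr1414 and Olfr1413, against 10198 to 19294 bases between neighbours of 1 subfamily. The models of Olfr1416, Olfr1415, Olfr1412 and Olfr1410 are multiples of 3 in length, which is a coding length without untranslated ends, whereas those of Olfr1414 (7468 bases) and Olfr1413 (1082 bases) are not. All 6 are annotated as protein coding. RefSeq places 2 further MOR208 genes, Olfr1411 and Olfr12, in or beside the MOR208 side, which are not analysed here.

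Each gene was counted with a capture probe and a reporter probe of 50 bases, both of which have to hybridize to the same RNA. The probes of the 3 MOR103 genes lie on the same stretch of the receptor, and they are shown because their likeness bears on how far the 3 counts are separate measurements. Capitals mark the bases that all 3 genes share once the probes are lined up, 32 of the 45 positions that the 3 capture probes cover together and 29 of 45 in the reporter probes.
Olfr1416 capture: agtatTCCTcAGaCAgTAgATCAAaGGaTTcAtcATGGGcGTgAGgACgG
Olfr1415 capture: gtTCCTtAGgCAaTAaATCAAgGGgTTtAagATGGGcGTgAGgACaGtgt
Olfr1414 capture: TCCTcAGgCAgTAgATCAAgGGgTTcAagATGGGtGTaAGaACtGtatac
Olfr1416 reporter: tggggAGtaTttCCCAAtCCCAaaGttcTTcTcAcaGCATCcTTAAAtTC
Olfr1415 reporter: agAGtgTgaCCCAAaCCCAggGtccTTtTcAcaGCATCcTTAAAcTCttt
Olfr1414 reporter: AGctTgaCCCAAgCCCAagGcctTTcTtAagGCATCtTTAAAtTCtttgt

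Between any 2 of the MOR103 genes the probes matched at 32 to 39 bases of their best ungapped overlap (71.1% to 81.2%), and the longest run shared by 2 probes was 16 bases, in the reporters of Olfr1416 and Olfr1415. The nearest probe of another gene among the 563 others of the panel was that of a MOR103 neighbour for all 6 MOR103 probes. Genes outside the cluster came close: the Olfr1416 capture probe matched that of Olfr1054 at 35 of 50 bases, and that of Olfr1415 matched Olfr390 at 36 of 49. On the MOR208 side, the Olfr1412 reporter matched that of Olfr791 at 36 of 50 bases. The capture probes of the MOR208 genes are shown for contrast, since they had far fewer matching bases with one another.
Olfr1413 capture: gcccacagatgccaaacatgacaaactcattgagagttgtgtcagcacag
Olfr1412 capture: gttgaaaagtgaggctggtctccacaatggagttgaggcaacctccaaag
Olfr1410 capture: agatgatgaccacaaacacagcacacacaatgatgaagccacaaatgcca

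Within MOR208 the best overlap of at least 20 bases had 15 to 21 matching bases (30.6% to 47.7%), beside 14 to 21 bases (at most 45.0%) between the subfamilies. Shorter overlaps of the MOR208 probes were searched with the offset set to be the same for capture and reporter. The end of the Olfr1410 probes and the start of the Olfr1413 probes then matched at 11 (capture) and 12 (reporter) of 14 bases. For Olfr1413 and Olfr1412 the best had 7 and 7 of 17 bases, and for Olfr1412 and Olfr1410 7 and 8 of 18. How far RNA of one MOR103 gene is counted by the probes of another was not tested, nor was any base that differs between 129 and C57BL/6J under a probe.

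The total count of all OR genes per lane was 618163 to 1013430. Counts were scaled by the positive controls and then by 5 reference genes of mature olfactory sensory neurons (Omp, Cnga2, Adcy3, Gnal and Ano2), which had 5982 to 126776 scaled counts in every mouse. The background of a lane, the mean plus 2 SD of its 8 negative controls, was 32.4 to 56.2 scaled counts. The lowest raw count of any of the 6 genes in any mouse was 135 (Olfr1413), with an exact 95% Poisson interval of 113 to 160 that covers counting error only. As a check of the mutant labels, in ΔOlfr7Δ mice 34 OR genes were more than 4-fold lower than in wild type, all 34 on chromosome 9, and in ΔHxΔP mice Olfr2, an OR gene of the P cluster, had 40.4 to 65.9 scaled counts against 3491 to 4244 in the mixed wild-type mice, and Olfr1507, an OR gene of the H cluster, had at most 52.8 against 4995 to 11467.

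Except for Olfr1412, where some ΔOlfr7Δ mice overlapped with mixed mice, the levels of the 6 genes fell into a lower set of 129 mice and a higher set of mixed mice. In the following, each level is given as the lowest, the median and the highest scaled count of the 6 mice of a group, scaled over all 30 lanes together. Levels are compared between mice for 1 gene at a time, because each probe pair has its own efficiency.

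Olfr1416, at the outer end of the MOR103 side, had 374, 416 and 476 scaled counts in 129 wild-type mice and 397, 483 and 539 in ΔOlfr7Δ mice. In mixed mice its counts were 718, 820 and 905 in wild type on MK29, 750, 854 and 975 in ΔHxΔP mice and 846, 849 and 880 in wild type on MK37. Thus every 129 mouse, mutant or not, was below every mixed mouse, the pair of 129 groups overlapped, and the 3 mixed groups overlapped as well.

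Olfr1415, the middle gene of the MOR103 side, had 400, 439 and 514 scaled counts in 129 wild-type mice and 429, 485 and 505 in ΔOlfr7Δ mice. The mixed mice had 777, 875 and 991 in wild type on MK29, 790, 874 and 947 in ΔHxΔP mice and 1095, 1174 and 1282 in wild type on MK37. The 129 mice were again below all mixed mice, and the MK37 mice stood above both groups of MK29 without overlap.

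Olfr1414, the MOR103 gene nearest to the MOR208 side, had 635, 680 and 718 scaled counts in 129 wild-type mice and 662, 722 and 861 in ΔOlfr7Δ mice. In mixed mice it had 1306, 1374 and 1440 in wild type on MK29, 1294, 1412 and 1515 in ΔHxΔP mice and 1629, 1730 and 2009 in wild type on MK37. The order was that of Olfr1415, with 3 levels that did not overlap: the 129 mice, the mice of MK29 and the mice of MK37.

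Olfr1413, the first gene of the MOR208 side, had 166, 171 and 206 scaled counts in 129 wild-type mice and 160, 183 and 212 in ΔOlfr7Δ mice. The counts in mixed mice were 291, 301 and 377 in wild type on MK29, 230, 240 and 279 in ΔHxΔP mice and 239, 272 and 307 in wild type on MK37. All 129 mice were below all mixed mice. Among mixed mice the ΔHxΔP group was the lowest and lay wholly below the wild-type group of its own cartridge, while it overlapped with the MK37 mice. How many of all OR genes did not overlap within that cartridge was not counted. Against the mixed wild-type mice of both cartridges, 9.17% of all OR genes did not overlap, and none of the 6 members.

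Olfr1412, a MOR208 gene, had 745, 800 and 850 scaled counts in 129 wild-type mice and 766, 895 and 1042 in ΔOlfr7Δ mice. In mixed mice the gene had 1010, 1132 and 1213 in wild type on MK29, 934, 1183 and 1286 in ΔHxΔP mice and 1015, 1140 and 1268 in wild type on MK37. The 129 wild-type mice were below all mixed mice, but the highest ΔOlfr7Δ mice overlapped with the mixed mice. Of the 6, only this gene had no gap between the set of both 129 groups and the mixed groups. How many of all OR genes had such a gap was not counted. Between 129 and mixed wild-type mice alone, 38.4% of all OR genes did not overlap.

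Olfr1410, the MOR208 gene at the other outer end, had 268, 335 and 385 scaled counts in 129 wild-type mice and 294, 327 and 376 in ΔOlfr7Δ mice. Mixed mice had 415, 488 and 592 in wild type on MK29, 406, 463 and 567 in ΔHxΔP mice and 485, 513 and 615 in wild type on MK37. Every 129 mouse was below every mixed mouse, and no order could be read within the 129 groups or within the mixed groups, which overlapped.

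**Figure D1:**
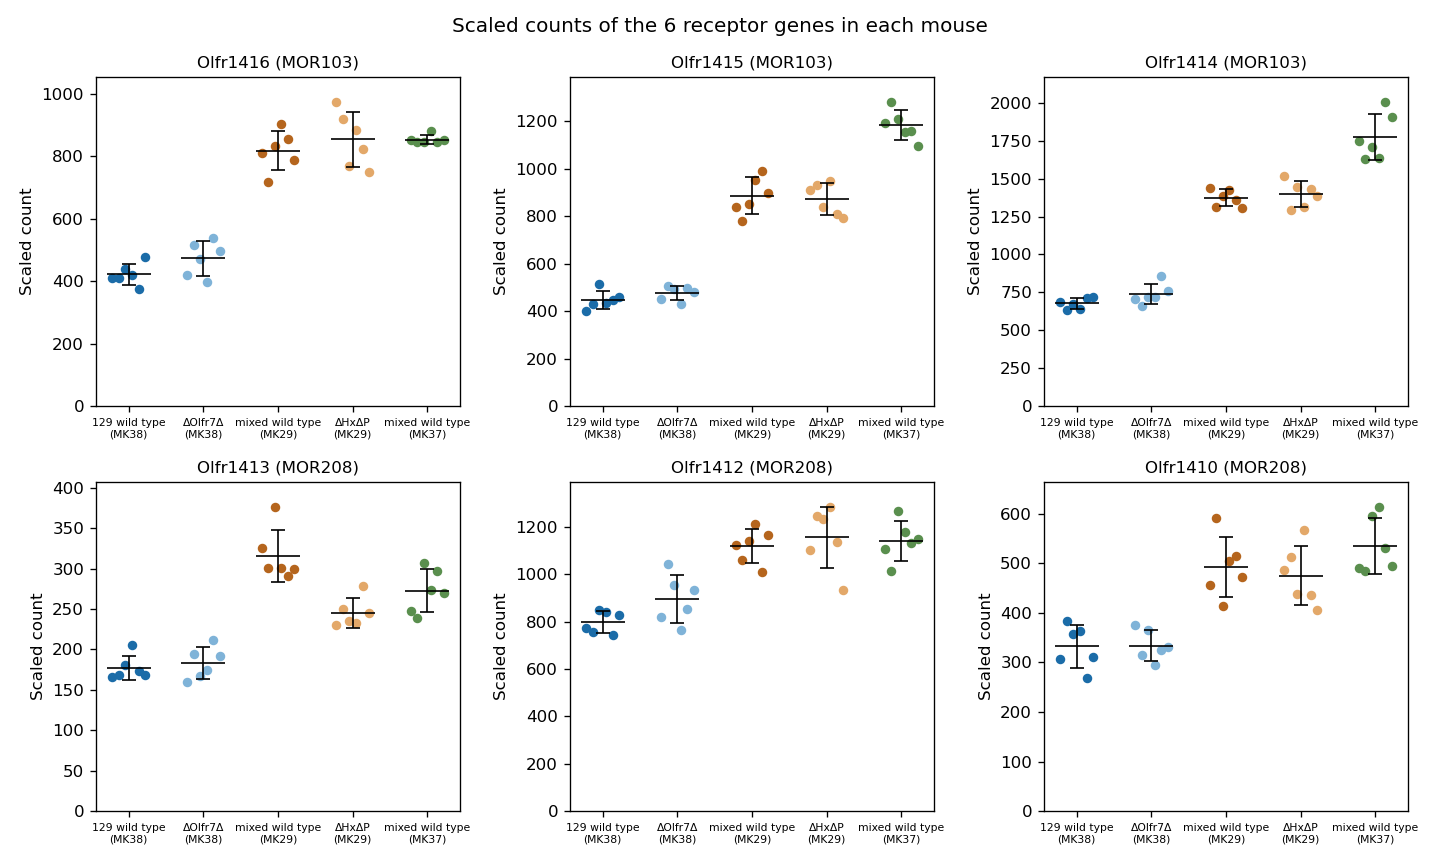
Scaled counts (vertical axes, from 0, scaled over all 30 lanes) of the 6 genes in the 5 groups of mice; each point is a mouse, the horizontal bar the mean of 6 mice and the whiskers 1 SD. Both groups on MK38 are low in all 6 panels, and the MK37 mice are above the MK29 groups for Olfr1415 and Olfr1414, the lowest MK37 mouse at 1095 and 1629 scaled counts.

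The comparison of 129 wild-type mice with the 12 mixed wild-type mice addresses how far the expression of these genes differs between the genetic backgrounds in which the mutants were kept. All 6 genes were lower in the 129 mice, the MOR103 genes by 1.98-fold to 2.30-fold and the MOR208 genes by 1.41-fold to 1.65-fold. In the limma test over 547 OR genes, 70.7% of all OR genes passed at an adjusted p of 0.05 in either direction, 37.3% with a lower level in 129 mice. All 6 members passed, all lower in 129. Groups that did not overlap were found for 38.4% of all OR genes and for 6 of 6 members, and the study's tTREAT test with a fold threshold of 1.3 called 25.4% of all OR genes and again 6 of 6 members. Since most of the panel passed this comparison, the count of calls says little about the 6 genes, and the sizes are what sets them beside the other genes: the median log2 change was -0.855 over the 6 members and -0.002 over all 547 genes.

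The level of Olfr1414 was 2.30-fold lower in 129 mice, a log2 change of -1.20 (SE 0.09, adjusted p = 6.7e-11). Olfr1415 was 2.29-fold lower, a log2 change of -1.19 (SE 0.10, adjusted p = 8.75e-10), and Olfr1416 was 1.98-fold lower, at -0.99 (SE 0.06, adjusted p = 3.21e-12). These 3 changes were the 28th, 29th and 37th from the lowest of the 547 genes. Of the MOR208 genes, Olfr1413 was 1.65-fold lower (log2 change -0.72, SE 0.09, adjusted p = 1.51e-07), Olfr1410 was 1.55-fold lower (-0.63, SE 0.09, adjusted p = 2.19e-06) and Olfr1412 was 1.41-fold lower (-0.50, SE 0.06, adjusted p = 5.96e-08), at places 71, 95 and 121 from the lowest. All 6 lay in the lowest 25% of changes. The 95% intervals of the MOR103 changes (-1.40 to -0.86 over the 3 genes) did not reach those of Olfr1412 (-0.61 to -0.38) or Olfr1410 (-0.82 to -0.44), while that of Olfr1413 (-0.90 to -0.55) overlapped the interval of Olfr1416 (-1.11 to -0.86). Strain and cartridge cannot be told apart in this comparison, since no 129 mouse was read on MK29 or MK37.

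**Figure D2:**
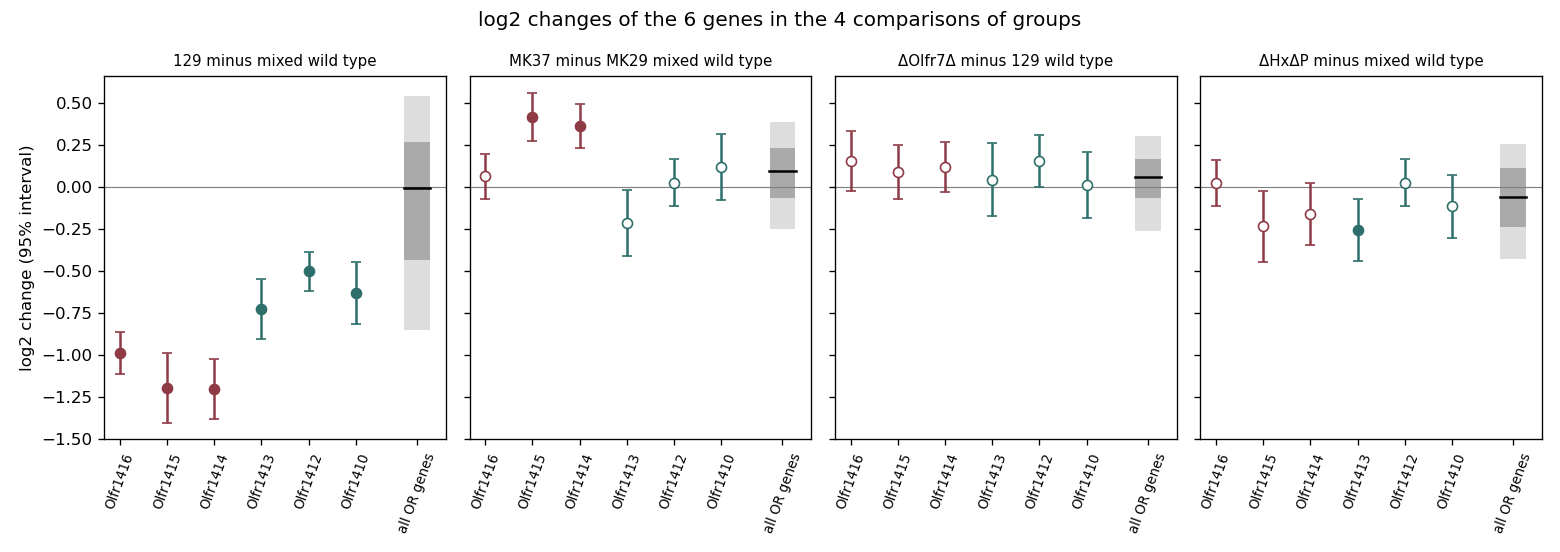
log2 changes (vertical axis) of the 6 genes with 95% intervals in the 4 comparisons of groups, MOR103 in red and MOR208 in green, filled where the limma adjusted p is under 0.05; the bars at the right of each panel hold the middle 50% (dark) and 80% (pale) of all OR genes tested, with their median as a line. In the first panel all 6 genes lie below the dark bar, from -1.20 (Olfr1414) to -0.50 (Olfr1412).

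The other MOR103 genes of the panel, 13 genes on 4 chromosomes, give a view of the subfamily outside the cluster. In 129 mice 12 of the 13 were lower and 1 was higher, with a median log2 change of -0.88 (range -1.296 to 0.265), against 37.3% lower among all OR genes. Among them were the P cluster genes Olfr6 (-1.296, SE 0.06, adjusted p = 1.62e-14), Olfr711 (-1.21, SE 0.06, adjusted p = 5.6e-14) and Olfr2 (-0.97, SE 0.04, adjusted p = 3.35e-14) on chromosome 7. Olfr414 (-0.89, SE 0.08, adjusted p = 1.4e-09) and Olfr220 (-0.72, SE 0.10, adjusted p = 1.56e-06), MOR103 genes at the far end of chromosome 1, were lower too. The 16 other OR genes of chromosome 1, Olfr414 and Olfr220 among them, had a median change of -0.15 with 8 lower and 3 higher. The MOR103 genes of the cluster thus had changes of the size seen in MOR103 genes elsewhere in the genome, and larger than the median of their own chromosome; neither was tested as a difference between lists, and no other MOR208 gene of the panel was in the study's table of names to set beside Olfr1413, Olfr1412 and Olfr1410.

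**Figure D3:**
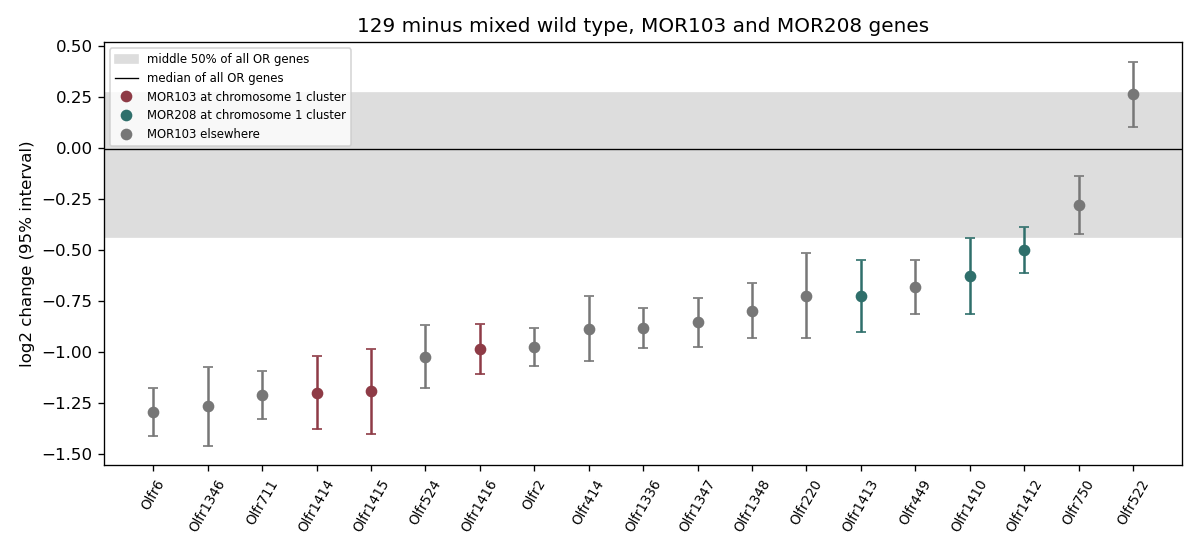
log2 changes of 129 against mixed wild-type mice (vertical axis, 95% intervals) for the 3 MOR103 genes of the cluster, the 3 MOR208 genes and 13 MOR103 genes elsewhere, in order of size; the grey band holds the middle 50% of all OR genes tested and the line is their median. The red points, from -1.20 to -0.99, lie among the grey points of the same subfamily.

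The 2 groups of mixed wild-type mice, companions of different mutant strains on different cartridges, differed in Olfr1415 and Olfr1414 of the MOR103 side. Olfr1415 was 1.34-fold higher on MK37 than on MK29 (log2 change 0.42, SE 0.07, adjusted p = 0.000168) and Olfr1414 was 1.29-fold higher (0.37, SE 0.06, adjusted p = 0.000257), both without overlap of the groups. Olfr1416, at the end of the same side, had a change of 0.06 (SE 0.06, adjusted p = 0.431). Its 95% interval of -0.07 to 0.20 did not reach the intervals of Olfr1415 (0.27 to 0.57) and Olfr1414 (0.23 to 0.50). The MOR208 genes did not pass: Olfr1413 had -0.21 (SE 0.09, adjusted p = 0.0816; -0.299 and lower on MK37 with TMM scaling, adjusted p = 0.0214), Olfr1412 had 0.03 (SE 0.07, adjusted p = 0.752) and Olfr1410 had 0.12 (SE 0.09, adjusted p = 0.31). Of all 556 OR genes 40.1% passed in either direction, 29.3% were higher on MK37 and 20.1% did not overlap, so that 2 of 6 members is near the share of the panel. tTREAT called 3.78% of all OR genes and none of the 6. Strain of origin and cartridge cannot be told apart here either.

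Within a mouse the ratio of Olfr1416 to Olfr1415 shows the same split without any scaling between lanes. On the log2 scale this ratio was -0.11 ± 0.07 (SD, n = 6) for the MK29 wild type, -0.03 ± 0.08 in ΔHxΔP mice, -0.08 ± 0.13 for the 129 wild type, -0.01 ± 0.09 for ΔOlfr7Δ and -0.47 ± 0.09 in the wild-type mice of MK37. The 6 MK37 mice (-0.60 to -0.36) were below all other mice, the nearest of which was a 129 wild-type mouse at -0.25. The ratio of Olfr1415 to Olfr1414, by contrast, had group means of -0.69 to -0.58 with SDs of 0.13 to 0.18, within the spread between mice in all 5 groups.

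**Figure D4:**
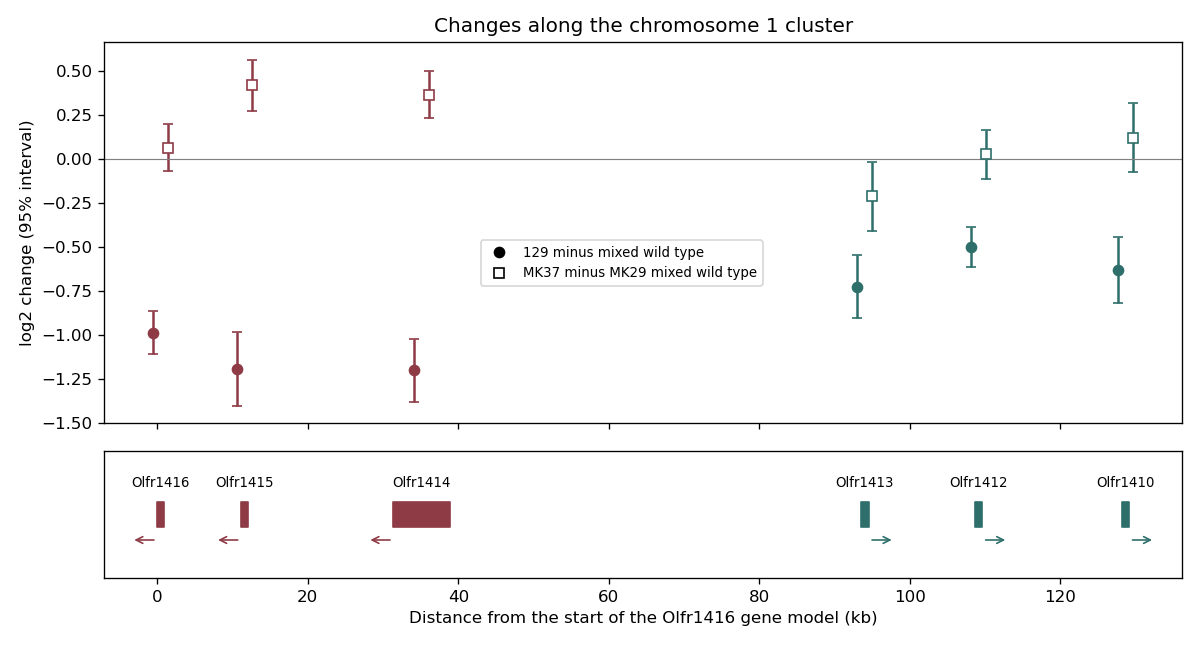
log2 changes with 95% intervals (upper panel) along the cluster for 129 against mixed wild type (filled) and for MK37 against MK29 mixed wild type (open), above a map of the 6 gene models (lower panel; the horizontal axis is the distance in kb from the start of Olfr1416, and arrows give the direction of transcription). The filled points are lowest in the MOR103 side, and of the open points only Olfr1415 (0.42) and Olfr1414 (0.37) are clear of 0 on the upper side.

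The comparison of ΔOlfr7Δ mice with 129 wild-type mice of the same cartridge asks whether the loss of an OR cluster on chromosome 9 changes the RNA of OR genes elsewhere. None of the 6 genes passed the limma test, whereas 35.1% of all 555 OR genes did, and by tTREAT the count was also 0 of 6 (7.03% of all OR genes). At an unadjusted p under 0.05 the count was 1 of 6, Olfr1412, and 246 of the 555 OR genes. All 6 estimates were above 0, from 0.01 (Olfr1410, SE 0.10, adjusted p = 0.932) to 0.16 (Olfr1412, SE 0.08, adjusted p = 0.103, and Olfr1416, SE 0.09, adjusted p = 0.159), with a median of 0.11 against 0.06 over all OR genes. The intervals allow a change from 1.14-fold lower to 1.26-fold higher. The 16 other OR genes of chromosome 1 had a median of 0.24, and 10 of them were called higher, against 23.2% of all OR genes.

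The comparison of ΔHxΔP mice with mixed wild-type mice asks the same of the loss of the H and P elements. Olfr1413 was lower in the mutants, with a log2 change of -0.25 (SE 0.09, adjusted p = 0.0297), which is a 1.19-fold difference. The other 5 did not pass: Olfr1415 had -0.23 (SE 0.10, adjusted p = 0.0826), Olfr1414 had -0.16 (SE 0.09, adjusted p = 0.175), Olfr1410 had -0.11 (SE 0.09, adjusted p = 0.341), and Olfr1416 and Olfr1412 had 0.03 each (SE 0.07, adjusted p = 0.779 and 0.775). Thus 1 of 6 members was called and was lower, against 34.2% of all 556 OR genes in either direction and 23.9% lower, and tTREAT with its threshold of 1.5 called none of the 6 and 4.14% of all. Against the wild-type mice of the same cartridge alone the change of Olfr1413 was -0.36 (adjusted p = 0.0105) and those of Olfr1415 and Olfr1414 were -0.02 and 0.03 (adjusted p = 0.855 and 0.807). In that fit 148 OR genes were called, 94 of them lower. Against the MK37 mice alone Olfr1413 had -0.15 (adjusted p = 0.193), while Olfr1415 and Olfr1414 had -0.44 and -0.34 (adjusted p = 0.000136 and 0.00107), which are the genes that differed between the wild-type groups. The fit against MK37 called 252 OR genes, 181 of them lower. The call of Olfr1413 was also lost with TMM scaling over the OR genes (-0.19, adjusted p = 0.123) and without ΔHxΔP replicate 1, 3 or 4.

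In the same ΔHxΔP mice the MOR103 genes of the P cluster were far lower. The lane background of this group was 34.3 to 50.9 scaled counts. Olfr2 and Olfr711 came near it, while Olfr6 stayed above it in every mouse, at 171 to 345. Olfr2, Olfr6 and Olfr711 had means of 49.6 ± 10.2, 258 ± 79.4 and 60.3 ± 16.2 scaled counts (SD, n = 6), against 3874 ± 235, 7437 ± 525 and 2401 ± 171 in the wild-type mice of MK29. The MOR103 genes of the cluster on chromosome 1 kept means of 854 ± 88.2 (Olfr1416), 870 ± 66.8 (Olfr1415) and 1399 ± 83.8 (Olfr1414) scaled counts in these mice, against 818 ± 63.5, 885 ± 78.3 and 1373 ± 55.7 in the wild-type mice of the same cartridge. For each of these 3 chromosome 1 genes the groups overlapped. Among the 10 MOR103 genes outside both clusters, limma called 3 lower and 1 higher in ΔHxΔP mice than in all mixed wild-type mice. Over all OR genes 23.9% were called lower.

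To set one subfamily against the other, the mean log2 level of the 3 MOR208 genes was subtracted from that of the 3 MOR103 genes in each mouse. Its own value depends on the probes, and it is read only between mice. The 129 wild-type mice had a difference of 0.48 ± 0.12 (SD, n = 6) and the ΔOlfr7Δ mice of 0.53 ± 0.07; it was 0.84 ± 0.11 in the wild-type mice of MK29, 0.98 ± 0.09 in ΔHxΔP mice and 1.14 ± 0.13 in the wild-type mice of MK37. The 129 wild-type mice (0.30 to 0.62) were below all 18 mixed mice (0.65 to 1.299), and a single ΔOlfr7Δ mouse, at 0.66, reached the lowest mixed mouse. In the mixed mice the groups overlapped with their neighbours in this order, but the MK29 wild-type mice reached at most 0.98 and the MK37 mice at least 0.97. Between 129 wild type and MK29 wild type the MOR103 mean moved from 8.98 to 9.96 and the MOR208 mean from 8.49 to 9.12, and between MK29 and MK37 the MOR103 mean moved on to 10.24 while the MOR208 mean was 9.10.

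**Figure D5:**
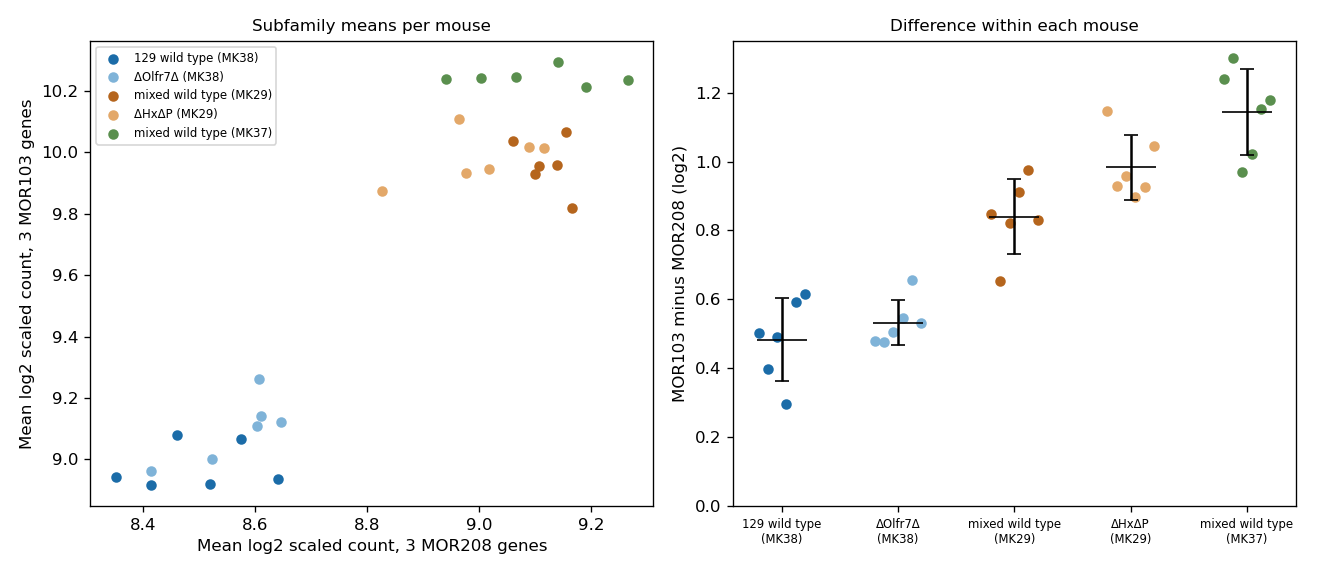
Left, mean log2 scaled count of the 3 MOR103 genes (vertical axis) against that of the 3 MOR208 genes (horizontal axis), 1 point per mouse; right, the difference of both means in each mouse by group, with the group mean and 1 SD. The 129 mice form a group of their own at the lower left, and the difference runs from 0.48 in 129 wild-type mice to 1.14 in the MK37 mice.

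No difference between the sexes passed the test. Over all 30 mice with the group as a covariate, limma called 0% of 549 OR genes and none of the 6 between males and females. At an unadjusted p under 0.05 there were 26 of the 549 genes and 2 of the 6, Olfr1414 with a log2 change of 0.12 in males (SE 0.04, adjusted p = 0.814) and Olfr1410 with -0.17 (SE 0.06, adjusted p = 0.814). The 95% intervals of all 6 lay between -0.29 and 0.20.

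Between mice of 1 group the spread of the 6 genes lay on both sides of the median of the panel. The SD of the log2 level was 0.02 to 0.20 over the 30 combinations of gene and group, beside a median over 543 OR genes of 0.11 to 0.18 in the 5 groups. Olfr1416 in the wild-type mice of MK37 had the lowest SD of all 543 genes in that group (0.02), at 846 to 880 scaled counts. Olfr1410 in 129 wild-type mice had the highest SD of the 6 genes (0.20, place 36 of 543 from the highest), at 268 to 385 scaled counts, and it had the highest SD of the 6 in every group but the ΔOlfr7Δ mice.

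Likeness between genes was measured as the correlation of log2 levels over 30 mice, which share the scaling factor of their lane, so that values are a description only. Pairs within MOR103 had a Pearson r of 0.94 to 0.97, pairs within MOR208 of 0.75 to 0.82 and pairs between the subfamilies of 0.82 to 0.91, against a median of 0.11 over all pairs of 549 OR genes. With the group means removed, the values depended on the scaling. The medians were then 0.20 within MOR103, 0.31 within MOR208 and 0.22 between, against 0.18 over all pairs. With TMM scaling they were 0.55, 0.56 and 0.46 against -0.004, and with the positive controls alone 0.74, 0.64 and 0.62 against 0.37. The pair Olfr1416 and Olfr1415 had the highest value of the 15 pairs after this step (0.68, with 0.81 under TMM scaling and 0.89 with the positive controls). Olfr1415 and Olfr1414, with the highest r over all mice (0.97), had -0.10, which turned to 0.38 with TMM scaling and 0.66 with the positive controls.

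The genes whose pattern over the 30 mice was most like each member were sought among all 549 OR genes. Olfr1416 was most like Olfr1262 (r = 0.97, Spearman's rho 0.84), Olfr455 (0.97, rho 0.89) and Olfr1261 (0.97, rho 0.78). Olfr1415 was most like Olfr455 (0.98, rho 0.95), Olfr1257 (0.97, rho 0.94) and its neighbour Olfr1414 (0.97, rho 0.86). Olfr1414 was most like Olfr314 (0.97, rho 0.88), Olfr1415 and Olfr455 (0.96, rho 0.87). Olfr455, on chromosome 6, was thus among the first 3 of every MOR103 gene of the cluster. With the group means removed, its r was 0.76 with Olfr1416, 0.63 with Olfr1415 and 0.03 with Olfr1414. Of the MOR208 genes, Olfr1413 was most like Olfr332, Olfr414 and Olfr806 (r = 0.91, 0.89 and 0.89). Olfr1412 was most like Olfr1416 of the MOR103 side, Olfr455 and Olfr1348 (r = 0.91, 0.89 and 0.88), and Olfr1410 was most like Olfr1257, Olfr1126 and Olfr1232 of chromosome 2 (r = 0.91, 0.91 and 0.90). No MOR208 gene had another MOR208 gene among its first 3. All these r values over the 30 mice include the differences between groups. With the group means removed, the listed pairs had -0.11 (Olfr1413 with Olfr414) to 0.76 (Olfr1416 with Olfr455).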

How the data were processed

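The authors deposited raw counts of the nCounter system (CodeSet Gorilla), 1 table for 30 lanes, with the probe sequences and with no scaling or background subtraction; empty cells are probes not read on a cartridge. Genotype, cartridge, lane and sex came from the labels. The 6 genes and all lists were chosen with earlier results of these data known.

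Counts were scaled, over the lanes of each comparison (or all 30 lanes for the levels), by the geometric mean of 6 positive controls and then of 5 reference genes, so a change is relative to those reference genes. limma 3.58.1 in R 4.3.3 was fitted with a mean-variance trend to log2 of the scaled count plus 1, over OR genes whose median in wild-type mice was 100 normalized counts or more, with Benjamini-Hochberg adjustment and calls at 0.05; sex was tested with group as a covariate. The comparisons share wild-type mice. The study's tTREAT was rewritten and used with p of 0.01, a fold threshold of 1.3 (1.5 for ΔHxΔP), background (mean plus 2 SD of 8 negative controls) subtracted. The scripts were tested on simulated counts. Named genes were the 6 members, the 3 OR genes most like each, and 5 other MOR103 genes. Probes were compared without gaps, at the offset with the most matching bases. Replicates are separate mice. On MK29 and MK38 wild-type mice took the first 6 of 12 lanes, so lane order and genotype are confounded. Figures were drawn with matplotlib 3.10.9.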

Additional observations from a re-analysis of the deposited data

Results flagged for a closer look

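The group of 6 wild-type mice on MK37 held 1 mouse, replicate 4, whose Olfr1416 level stood apart from the others: it had 880 scaled counts, while the other 5 had 846 to 852. Its gap to the nearest mouse was 0.809 of the range of the group, above the critical value of 0.625 for 6 values. It was the only one flagged of 35 sets of values examined in this way, and chance flags about 5% of such sets; the range of this group was the narrowest of all.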

How the results depend on the processing

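All 6 genes stayed lower in 129 mice, past the threshold, under every scaling, filter and test that was run, against either group of mixed wild-type mice alone and without any 1 mouse. Subtracting the background, dropping the filter on low counts and adding sex as a covariate moved no call of a member in any comparison. With the positive controls alone, 4 of 6 members were called higher in ΔOlfr7Δ mice (324 OR genes in all). The median over all OR genes moved there from 0.062 to 0.242. No member was called in ΔHxΔP mice with the positive controls alone, TMM, median-of-ratios scaling (added after seeing the data) or tTREAT. Against MK37 alone 2 members were called lower in ΔHxΔP mice, beside 252 OR genes in all, 181 of them lower. Between the mixed wild-type groups, TMM and median-of-ratios scaling called 3 members, with Olfr1413 lower on MK37 (-0.299 and -0.302, adjusted p = 0.0214 and 0.0208) beside Olfr1415 and Olfr1414, and tTREAT called 0; over all OR genes it called 39 for ΔOlfr7Δ (195 by limma), 23 for ΔHxΔP (190), 21 between mixed groups (223) and 139 for 129 (387). The split of calls into higher and lower moved with the scaling: for ΔOlfr7Δ from 129 and 66 to 283 and 41 (positive controls), with 49.3% higher by median of ratios against 66.2%, for ΔHxΔP from 57 and 133 to 63 and 88 (positive controls) or 115 and 109 (TMM), and between mixed groups from 163 and 60 to 216 and 32 or 114 and 108. Estimates that were not called changed sign: for ΔOlfr7Δ, Olfr1410 with TMM (-0.004) and median of ratios (-0.05) and Olfr1413 with the latter (-0.017); for ΔHxΔP, Olfr1414 against MK29 alone (0.025) and Olfr1416 against MK37 alone (-0.006); between mixed groups, Olfr1416 (-0.023 and -0.026) and Olfr1412 (-0.06 and -0.063) with TMM and median of ratios; between the sexes, Olfr1412 with the positive controls (0.033). The MOR103 minus MOR208 difference rose in all 5 groups after background subtraction. It was then 0.583 in 129 wild-type mice, 0.621 in ΔOlfr7Δ mice and 0.912 in MK29 wild-type mice. In ΔHxΔP mice it was 1.076 and in MK37 wild-type mice 1.231.

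Without 1 mouse at a time, the members called were 0 to 2 for ΔOlfr7Δ (2 only without ΔOlfr7Δ replicate 4: Olfr1416 and Olfr1412, higher). Of all OR genes 160 to 210 were called there, 210 without replicate 4. For ΔHxΔP the members called were 0 to 2, beside 169 to 198 of all OR genes. There were 0 without ΔHxΔP replicate 1, 3 or 4, and 2 without MK29 wild-type replicate 1 or 2 (Olfr1415 beside Olfr1413). Estimates then ranged from -0.046 to 0.058 (Olfr1410, ΔOlfr7Δ), -0.013 to 0.063 (Olfr1416, ΔHxΔP), -0.004 to 0.088 (Olfr1412, ΔHxΔP), -0.004 to 0.06 (Olfr1412, mixed groups) and -0.017 to 0.025 (Olfr1415, sexes). Lane number gives mixed mice of MK29 and MK37 the same numbers but no known pairing; with it as a replicate block 2 members were again called and 207 OR genes in all. The planned fits with edgeR and DESeq2 were not run. The cause of these shifts was not tested.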
